A study of Homo sapiens with 9 samples.

Results

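The HOX cluster genes encode homeodomain transcription factors that set positional identity along the body axis, and they lie in 4 clusters in which gene order follows the order of expression along that axis. In blood, members of HOXA and HOXB are active in stem and progenitor cells, and HOX genes are often deregulated in leukemia. H3K4me3, a trimethyl group on lysine 4 of histone H3, is a mark of active promoters, and at HOX genes it is written by MLL-family complexes. The members were chosen by name, as the protein-coding genes whose symbol is HOXA, HOXB, HOXC or HOXD followed by digits. There were 39 such genes among 20162 protein-coding genes of the annotation, 11 in HOXA (chr7:27132612-27239710), 10 in HOXB (chr17:46605888-46806112), 9 in HOXC (chr12:54332615-54449814) and 9 in HOXD (chr2:176957449-177055635), on hg19.

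H3K4me3 was mapped in the human erythroleukemia cell line HEL by CUT&RUN. In this assay a nuclease tethered to an antibody cuts out the chromatin that carries the mark, and the freed DNA is sequenced. The 9 libraries fell into 4 groups, all from the same line grown in the same medium: 3 from cells with a non-targeting CRISPR control (NTC) and 2 each from cells with a CRISPR knockout (KO) of METTL3, METTL14 or WTAP, subunits of the RNA methyltransferase that writes m6A on mRNA. The comparisons ask where the mark at HOX genes depends on that enzyme. The study's methods describe knockout by lentiviral guide RNAs in bulk HEL cells, so a change in every cell and a change in a share of the cells cannot be told apart, and the lists do not measure the knocked-out proteins. No label says that the libraries of a group came from separate cultures, so p-values measure only the spread between these libraries. Each library is a list of its own peaks with a signal in spike-in-calibrated units, and depth is not in these lists, so precision is limited by how few libraries there are.

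The lists held 21724 to 21940 peaks in the NTC libraries, 9205 and 9369 in METTL3-KO, 3169 and 5286 in METTL14-KO, and 3159 and 3673 in WTAP-KO. Peak widths ended at 2000 bp in every list, although the NTC lists still held 413 to 463 peaks of over 1900 bp. A missing call therefore says that no peak of up to this width was listed, and whether a wider marked domain was left out was not tested. Of the erythroid and megakaryocytic genes that mark HEL cells, GATA1, KLF1, TAL1, GFI1B and EPOR had a promoter peak in all 3 NTC libraries. None of 3 T cell and none of 3 epithelial markers had a peak in any library, while the B cell gene PAX5 had one in all 3 NTC libraries at signals of 1084 to 1323.

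The sequences below show the kinds of peak that the results turn on. The sequence at HOXB6 was shared by all 6 KO peaks of a promoter with no NTC peak. The sequence at HOXB2 was shared by the peaks of the 4 libraries of METTL14-KO and WTAP-KO, and those at HOXC9 and HOXB13 were shared by the 3 NTC peaks of promoters with no KO peak. Each is the longest run outside annotated UTRs, of at most 300 bp, that was common to a peak of each of those libraries. That peak was the strongest of the library at that promoter, except at HOXB2 in METTL14-KO 1. There the sequence lies in a peak of 1056, and a peak of 1811 lay elsewhere at the promoter. The sequences were read from hg19 on the plus strand and are printed 5′ to 3′ with CG dinucleotides in capitals.
HOXB6 (chr17:46675275-46675512): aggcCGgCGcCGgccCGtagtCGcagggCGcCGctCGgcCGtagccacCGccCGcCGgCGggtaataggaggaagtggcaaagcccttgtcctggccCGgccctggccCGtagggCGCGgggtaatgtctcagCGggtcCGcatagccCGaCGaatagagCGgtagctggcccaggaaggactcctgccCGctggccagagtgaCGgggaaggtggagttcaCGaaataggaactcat
HOXB2 (chr17:46621373-46621672): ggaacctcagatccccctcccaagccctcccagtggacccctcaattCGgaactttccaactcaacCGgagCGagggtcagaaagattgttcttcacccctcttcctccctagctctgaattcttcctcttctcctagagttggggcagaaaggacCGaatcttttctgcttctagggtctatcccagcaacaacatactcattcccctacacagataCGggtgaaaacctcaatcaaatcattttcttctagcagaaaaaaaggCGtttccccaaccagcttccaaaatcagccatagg
HOXC9 (chr12:54389544-54389843): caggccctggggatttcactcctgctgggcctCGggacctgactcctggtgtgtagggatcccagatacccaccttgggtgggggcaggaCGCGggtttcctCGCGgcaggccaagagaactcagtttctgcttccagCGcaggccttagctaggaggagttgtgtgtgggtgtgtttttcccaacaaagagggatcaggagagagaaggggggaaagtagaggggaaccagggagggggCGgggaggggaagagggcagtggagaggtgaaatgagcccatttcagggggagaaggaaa
HOXB13 (chr17:46806655-46806954): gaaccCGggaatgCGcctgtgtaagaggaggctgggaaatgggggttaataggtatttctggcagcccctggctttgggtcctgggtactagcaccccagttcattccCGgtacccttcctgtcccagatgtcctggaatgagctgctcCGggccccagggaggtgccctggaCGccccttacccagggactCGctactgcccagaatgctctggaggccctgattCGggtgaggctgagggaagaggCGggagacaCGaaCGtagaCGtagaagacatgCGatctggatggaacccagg
The HOXB6 sequence held 25 CG dinucleotides in 238 bp, or 0.916 times the number that its C and G content would give by chance order. That ratio was 0.371 at HOXB2, 0.294 at HOXC9 and 0.446 at HOXB13. Over the whole merged regions around these sequences the ratios were nearer to each other, at 0.697 for HOXB6, 0.668 for HOXB2, 0.596 for HOXC9 and 0.423 for HOXB13, so the printed stretches do not stand for their regions in base composition.

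A promoter peak was a peak within 1 kb of any annotated start of a gene, and the promoter signal was the sum of such peaks. Of the 39 HOX genes, 23 had a promoter peak in at least 1 library and 16 had none in any, the leukemia gene HOXA9 among them. The number of HOX genes with a promoter peak was 15, 13 and 12 in the NTC libraries, 14 and 13 in METTL3-KO, 14 and 11 in METTL14-KO, and 8 and 11 in WTAP-KO. The groups overlapped, at 13.3 ± 1.53 genes in NTC (SD, n = 3) and 11.8 ± 2.32 in the KO libraries (n = 6). Over all protein-coding genes the same count was 9563 ± 110 in NTC and 4260 ± 2132 in KO, with every KO library lower.

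The clusters differed in their counts. HOXB had 5, 3 and 2 genes with a promoter peak in the NTC libraries and 5 to 8 in the KO libraries, while HOXC had 4 or 5 in NTC and 1 or 2 in KO. HOXD had 2 or 3 in NTC, 1 in each METTL3-KO library and none in the other KO libraries. HOXA had 2 to 4 in NTC, 5 in each METTL3-KO library, 3 or 4 in METTL14-KO, and 0 and 2 in WTAP-KO. The heat map of promoter signal shows KO signal from HOXB2 to HOXB8, although METTL3-KO had nearly none at HOXB2, HOXB3 and HOXB4. HOXB3, HOXB4 and, weakly, HOXB7 also had NTC peaks. At HOXB13, HOXC and HOXD the signal was mainly in NTC, with weaker KO peaks at HOXC4, HOXC6 and HOXD13.

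**Figure D1:**
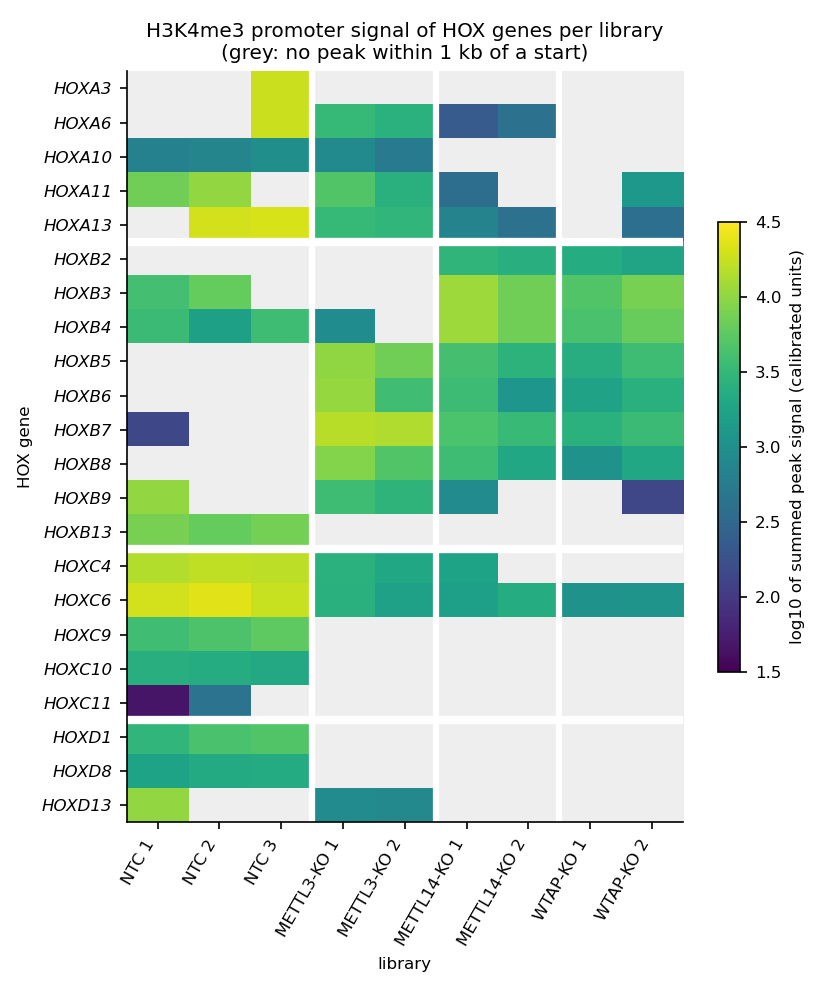
Promoter signal of 22 HOX genes with a peak, one row per gene in cluster order and one column per library, coloured by log10 of the summed peak signal in calibrated units, with grey where no peak was listed. HOXB5 to HOXB8 were marked in all 6 KO libraries, and HOXB13, HOXC9, HOXC10, HOXD1 and HOXD8 in the 3 NTC libraries and no KO library.

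Promoter signal was compared with limma on log2(signal + 30.1), over all 12037 protein-coding genes with a promoter peak in at least 2 libraries, with adjusted p-values from the Benjamini-Hochberg procedure at 0.05 over all of them. Of the HOX genes 22 met that filter, the exception among those with a peak being HOXA3, whose single call was a peak of 18041 in NTC 3. Since a promoter with no peak is at 0, a log2 change on this scale is set in part by the pseudocount of 30.1 and is not a fold. Libraries with no peak all take the same value, so a group without peaks adds no spread. Standard errors and p-values of such promoters and regions therefore do not measure the spread between those libraries. Against NTC, the 3 KO groups together had 8 HOX promoters lower and 6 higher. In the background of all genes tested, 72.9% were lower and 14.5% higher. The median log2 change was -1.40 over the HOX genes and -5.47 over all genes tested. Centring the libraries on the genes marked in all 9 moved the latter to -3.63, and then 7 HOX promoters were lower and 6 higher, beside 64.1% and 15.1% of all genes tested.

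Each KO group was also set against the same 3 NTC libraries, so these comparisons share their controls. METTL3-KO had 7 HOX promoters lower and 5 higher, beside 61.0% and 14.1% of all genes tested. METTL14-KO had 8 lower and 6 higher, beside 68.8% and 8.42%, and 6 lower and 8 higher after centring, beside 57.3% and 10.0%. WTAP-KO had 8 lower and 5 higher, beside 69.7% and 6.82%, and 7 of each after centring, beside 62.0% and 8.95%. Every KO library was below every NTC library at 7 of the 22 HOX genes, beside 68.1% of all genes tested, and above at 4, beside 5.21%. The 4 were HOXB5, HOXB6, HOXB7 and HOXB8.

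**Figure D2:**
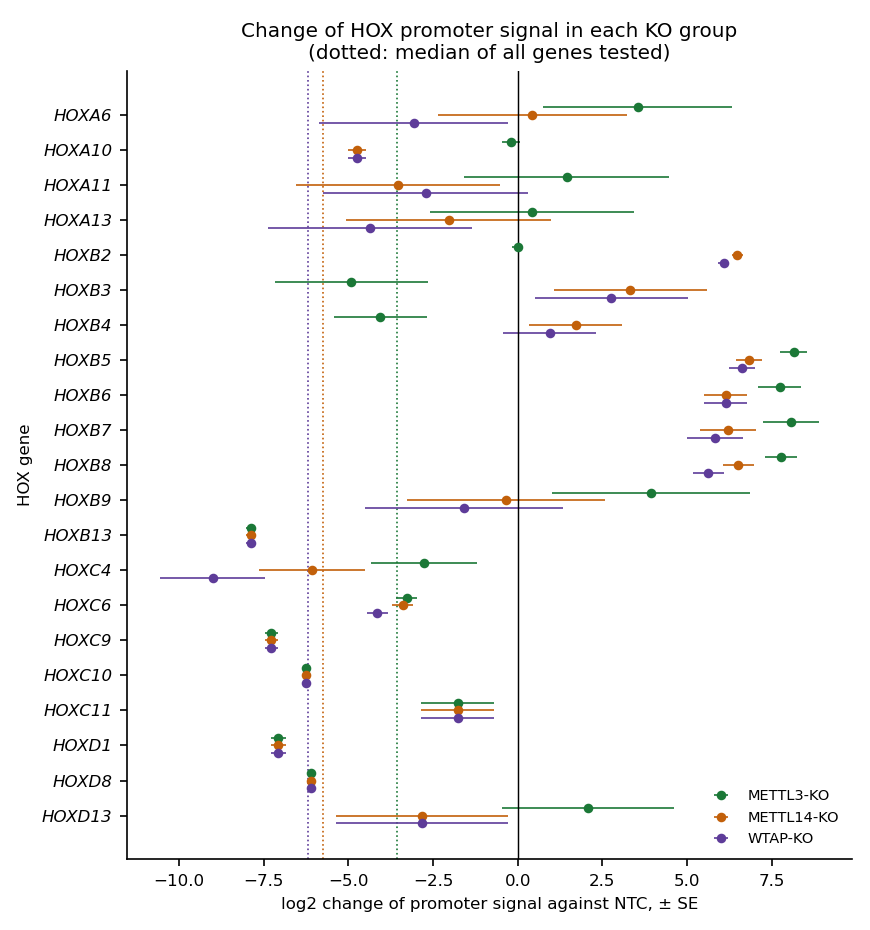
Log2 change of promoter signal against NTC, with its standard error, for 21 of the HOX genes tested in each KO group, with the median of all genes tested as a dotted line per group. HOXB5 to HOXB8 lie between 5.62 and 8.14 in all 3 groups, and HOXB2, HOXB3 and HOXB4 part METTL3-KO from the other groups.

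HOXB5 to HOXB8 are neighbouring genes in the middle of HOXB, and each had a promoter peak in all 6 KO libraries. At HOXB6, HOXB7 and HOXB8 these peaks lay at starts inside the gene, and no library had a peak within 1 kb of the outermost start of any of them. With the outermost start alone they were not tested, and of the 4 genes HOXB5 was still higher (7.20, adjusted p = 7.56e-07). HOXB5 had no NTC peak and signals of 10114 and 7058 in METTL3-KO, 4167 and 2771 in METTL14-KO, and 2333 and 3681 in WTAP-KO. HOXB6, a gene expressed in early erythroid and myeloid cells, had no NTC peak and signals of 10529 and 3854 in METTL3-KO, 3600 and 1201 in METTL14-KO, and 1712 and 2548 in WTAP-KO. HOXB8, known for holding myeloid progenitors undifferentiated when overexpressed, had no NTC peak and signals of 8662 and 4909, 3672 and 2012, and 1073 and 1956 in the same order. At these 3 genes the KO libraries stood wholly above the NTC libraries, and METTL3-KO stood wholly above METTL14-KO and WTAP-KO.

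HOXB7 had a single weak NTC peak of 142 in NTC 1 and none in NTC 2 and NTC 3. Its KO signals were 15069 and 13748 in METTL3-KO, 4446 and 3430 in METTL14-KO, and 2617 and 3511 in WTAP-KO. The NTC 1 peak lay at chr17:46686482-46686654, apart from the main KO region at chr17:46687509-46689109, so no NTC library had a peak in that region. Over the 3 KO groups the log2 change was 7.20 ± 0.30 at HOXB5 (SE, adjusted p = 8.69e-07), 6.67 ± 0.49 at HOXB6 (1.78e-05), 6.70 ± 0.64 at HOXB7 (7.28e-05) and 6.63 ± 0.36 at HOXB8 (3.37e-06). With weaker peaks than the median NTC peak left out, HOXB6 did not pass (4.80, adjusted p = 0.0561). HOXB7 and HOXB8 share 1 region within 1 kb of both, so their signals are not independent.

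HOXB2, HOXB3 and HOXB4 carried KO peaks in METTL14-KO and WTAP-KO but nearly none in METTL3-KO. HOXB2, a hindbrain patterning gene, had no peak in any NTC or METTL3-KO library. Its signals were 2867 and 2441 in METTL14-KO and 2291 and 1768 in WTAP-KO, in 2 regions, one of them over the printed sequence. Both groups were higher than NTC, by 6.47 ± 0.16 (adjusted p = 1.06e-07) and 6.08 ± 0.16 (1.37e-07).

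HOXB4, the HOX gene best known for expanding blood stem cells, had peaks in all 3 NTC libraries, at 3493, 1610 and 3709. METTL3-KO had 902 and no peak, METTL14-KO 11557 and 7073, and WTAP-KO 4398 and 6423. The groups were not marked at one place. The NTC peaks and the METTL3-KO peak lay in the region chr17:46653957-46655231 inside the gene, while the METTL14-KO and WTAP-KO peaks lay in chr17:46655710-46657574 across its start, 478 bp away. Taken by region, the former fell by 5.71 ± 1.04 on the log2 scale over all KO groups (adjusted p = 1.99e-03), and the latter rose by 5.30 ± 0.23 (9.67e-07). The sum over the promoter had a log2 change of -0.47 ± 1.07 (adjusted p = 0.694), which passed the threshold without METTL3-KO 1 (-1.30, adjusted p = 0.0312) and had the opposite sign without METTL3-KO 2 (0.36).

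HOXB3, which has 12 annotated starts, shares the region at the HOXB4 start and showed a similar parting. Its NTC peaks of 3989 and 6106, in NTC 1 and NTC 2, lay in the region chr17:46659737-46661551, where no KO library had one. METTL14-KO had 11557 and 7073 and WTAP-KO 4892 and 7579 in the shared region, and METTL3-KO had none. The METTL14-KO peaks there were 1865 and 1629 bp wide. Whether METTL3-KO had a domain there that was wider than the 2000 bp limit, and so not listed, was not tested. The summed log2 change of 0.39 ± 1.74 (adjusted p = 0.842) became -2.07 (adjusted p = 3.67e-03) without NTC 3, the NTC library with no HOXB3 peak.

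From the start of HOXB4 to the outermost start of HOXB8, a stretch of 36943 bp, the NTC libraries had 4, 2 and 1 peaks, which covered 1727, 2135 and 271 bp. The KO libraries covered 5088 to 7629 bp there. The summed signal was 4553, 6594 and 225 in NTC, 55793 and 32002 in METTL3-KO, 30726 and 19035 in METTL14-KO, and 15768 and 22016 in WTAP-KO, so every KO library lay above every NTC library. Peaks of any NTC library covered 2489 bp of the stretch and peaks of any KO library 9926 bp, and these shared 0 bp. That 0 depends on the borders, since just outside the stretch, in chr17:46653957-46655231, the METTL3-KO 1 peak lay on NTC peaks. The stretch was not among the planned comparisons, so its values are a description, with no test. All 6 KO libraries covered the same 2758 bp. One of the regions common to the 6 KO libraries, chr17:46662440-46664029 in an intron of HOXB3, lay 2456 bp from the nearest HOX start.

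**Figure D3:**
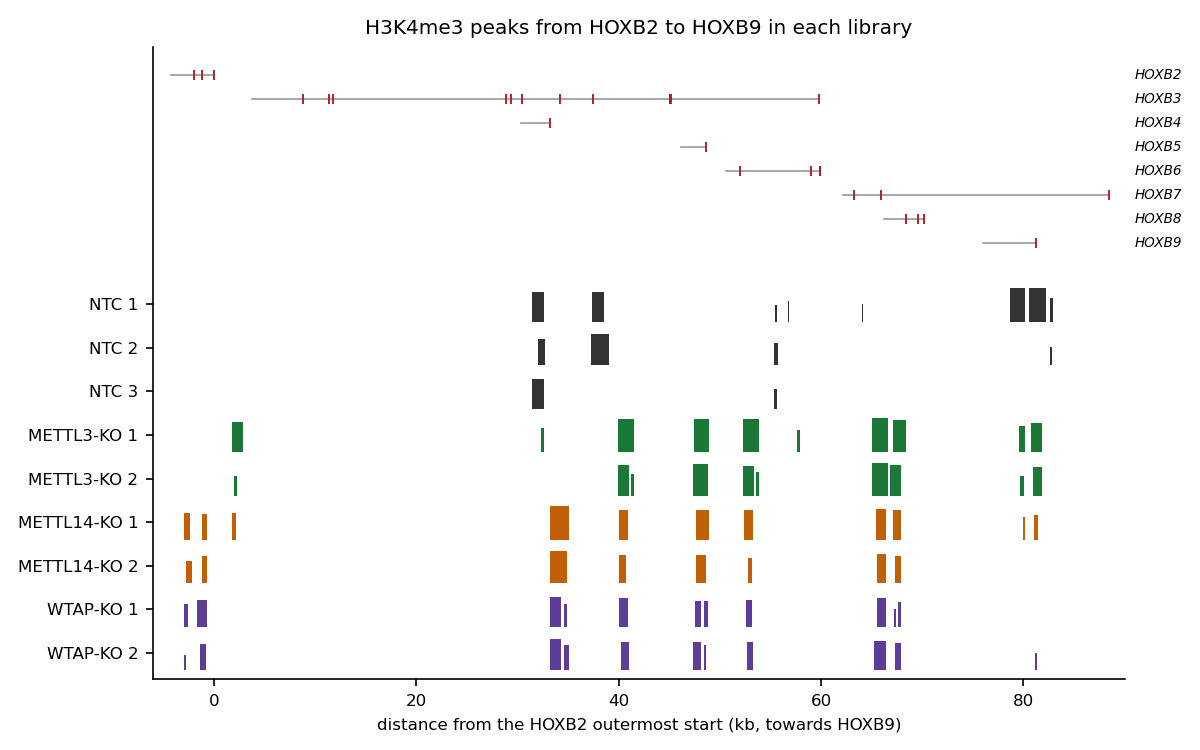
Peaks from HOXB2 to HOXB9 in each library, against distance in kb from the outermost HOXB2 start, with bar height growing with log10 of the peak signal and, above, each gene as a grey line with its annotated starts as red ticks. The 6 KO libraries repeat the same peaks between 40 and 70 kb, where the NTC libraries have few and weak ones at other places.

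At the far end of HOXB the direction was the other way. HOXB13, a gene of the posterior body and prostate, had signals of 7598, 6123 and 7473 in NTC and no peak in any KO library. Its log2 change was -7.87 ± 0.11 (adjusted p = 8.75e-09), at the region chr17:46806031-46807523 over the printed sequence. Between HOXB9 and HOXB13, 4 regions with a peak in all 3 NTC libraries had none in any KO library. HOXB9 was called in 1 NTC library at 10441, in a peak 1749 bp wide, in METTL3-KO at 3670 and 2812, and in METTL14-KO 1 at 878 and WTAP-KO 2 at 137. Its log2 change of 0.67 ± 2.26 (adjusted p = 0.792) turned to -0.74 without NTC 2 or NTC 3 and to -0.15 without METTL14-KO 1.

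HOXC lost most of its peaks in every KO group. HOXC6, which acts in trunk and limb patterning, was the sole HOX gene with a promoter peak in all 9 libraries. Its signals were 19538, 23005 and 17809 in NTC, 2545 and 1636 in METTL3-KO, 1540 and 2289 in METTL14-KO, and 1059 and 1138 in WTAP-KO. The groups did not overlap, and the KO mean was 8.46% of the NTC mean. The log2 change of -3.61 ± 0.24 (adjusted p = 1.03e-05) was -0.77 after centring (adjusted p = 0.0804), where it no longer passed. That sum takes in regions at several annotated starts, of which chr12:54421893-54422979 alone was called in all 9 libraries, at 9529, 10615 and 12176 in NTC and 1059 to 2545 in KO.

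HOXC4, which is also expressed in lymphoid cells, had 14175, 16457 and 15797 in NTC, 2594 and 1957 in METTL3-KO, 1725 in METTL14-KO 1 and no peak in the other KO libraries. Its log2 change over all KO groups was -5.95 ± 1.21 (adjusted p = 3.34e-03), while the METTL3-KO change of -2.76 ± 1.56 did not pass (adjusted p = 0.149). HOXC9 had 3769, 4642 and 5633 in NTC, and HOXC10 had 2461, 2291 and 2062, with no KO peak for either. The HOXC9 region, chr12:54388863-54390074, also lies within 1 kb of a HOXC6 start and counts in the HOXC6 sum, so these genes are not independent. The HOXC9 and HOXC10 log2 changes were -7.27 ± 0.14 (adjusted p = 2.20e-08) and -6.25 ± 0.09 (9.95e-09). HOXC11 had weak NTC peaks of 47.4 and 438 in 2 libraries and no KO peak, and its change of -1.77 ± 0.84 (adjusted p = 0.0874) passed without NTC 3 (-2.66, adjusted p = 0.0144).

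In HOXD, HOXD1 had 2998, 4410 and 4862 in NTC and HOXD8 had 1732, 2150 and 2204, with no KO peak. Their log2 changes were -7.07 ± 0.17 (adjusted p = 5.29e-08) and -6.09 ± 0.11 (1.72e-08). HOXD13, the most posterior HOXD gene and a limb and digit patterning factor, had 10430 in NTC 1 alone, in a peak 1711 bp wide, and 890 and 818 in METTL3-KO. Its log2 change of -1.19 ± 1.97 (adjusted p = 0.589) rested on that 1 library and was 1.63 without it (adjusted p = 2.09e-06).

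HOXA was mixed. HOXA10, a regulator of myeloid progenitors, had 657, 729 and 990 in NTC, 871 and 524 in METTL3-KO, and none in METTL14-KO and WTAP-KO. Its log2 change over all KO groups was -3.23 ± 0.20 (adjusted p = 7.63e-06), but the METTL3-KO and NTC peaks lay in different regions. The NTC peaks were in chr7:27219473-27220035, with no KO peak, and those of METTL3-KO were in chr7:27212192-27212888 and a smaller region beside it, with no NTC peak.

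HOXA6, HOXA11 and HOXA13 had strong peaks in only some NTC libraries and weaker ones in most KO libraries. HOXA6 had 18041 in NTC 3, in a peak 1960 bp wide that also lies within 1 kb of a HOXA3 start, 3216 and 2636 in METTL3-KO, 230 and 416 in METTL14-KO, and none in WTAP-KO. Its log2 change of 0.29 ± 2.16 (adjusted p = 0.904) was 3.37 without NTC 3 (adjusted p = 7.34e-05) and -1.24 without NTC 1 or NTC 2. HOXA13, the most posterior HOXA gene, had 19894 and 21046 in NTC 2 and NTC 3, in peaks of 1905 and 1901 bp, and 399 to 3205 in 5 of the 6 KO libraries. Its change of -1.99 ± 2.34 (adjusted p = 0.448) was -5.13 without NTC 1, the NTC library with no HOXA13 peak (adjusted p = 6.05e-03). HOXA11 had 7022 and 10301 in NTC 1 and NTC 2, 4789 and 2562 in METTL3-KO, 389 in METTL14-KO 1 and 1257 in WTAP-KO 2, with a change of -1.60 ± 2.34 (adjusted p = 0.539). Here the places differed in part. The NTC peaks lay in the region chr7:27222515-27224130, where METTL3-KO also had peaks, at 1783 and 842, and METTL14-KO and WTAP-KO had none. The region chr7:27224580-27225820 across a HOXA11 start held peaks of 4 KO libraries, both of METTL3-KO among them, and of no NTC library (3.72 ± 1.34, adjusted p = 0.0374).

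Cluster regions called in some NTC libraries alone held narrow as well as wide peaks. In the 11 regions called in 1 NTC library the median NTC peak was 228 bp wide, beside 237 bp over such regions of the genome, and 4 of the 11 peaks were over 1400 bp, or 36.4% against 11.7%. In the 10 regions called in 2 NTC libraries the median was 957 bp, beside 370 bp, and 7 of 20 peaks were that wide, or 35.0% against 16.2%. In the 21 regions called in all 3 it was 687 bp, beside 746 bp, and 10 of 65 were that wide, or 15.4% against 16.3%. These shares are a description, with no test. Within the clusters the widest peak of each NTC library was 1814, 1982 and 1960 bp. The part of the 2000 bp limit in the missing NTC calls was not tested.

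**Figure D4:**
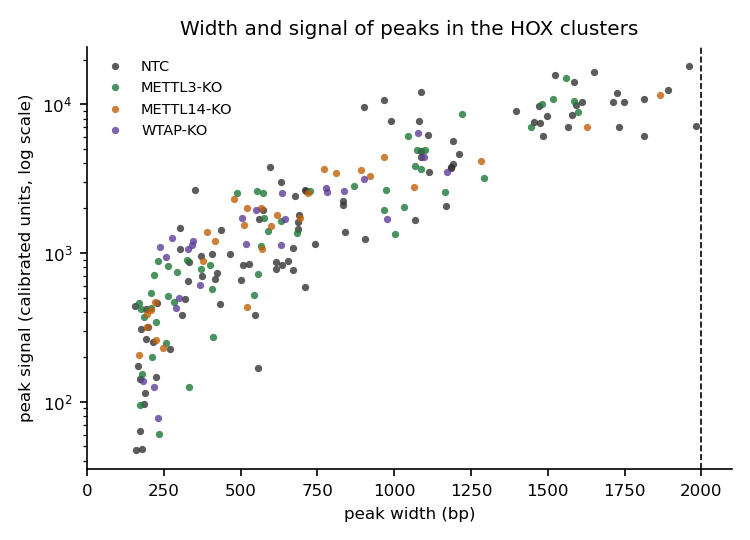
Width in bp and signal, on a log axis, of the 204 peaks inside the 4 clusters, coloured by group, with a dashed line at 2000 bp. Wide peaks carry high signals in every group, and the NTC peaks run up to 1982 bp, just short of the line.

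METTL3-KO was also set against the average of the other KO groups. It was lower at 3 HOX promoters, beside 0.598% of all genes tested, and higher at 4, beside 30.0%. After centring, 3 were lower, beside 1.18%, and 2 higher, beside 18.1%. The 3 lower were HOXB2 (-6.28 ± 0.15, adjusted p = 7.31e-06), HOXB3 (-7.95 ± 2.14, adjusted p = 0.0346) and HOXB4 (-5.38 ± 1.31, adjusted p = 0.0243). Those at HOXB3 and HOXB4 rest on 1 shared region, and HOXB3 lost its call when any 1 KO library or NTC 1 was left out, and HOXB4 without NTC 1, NTC 3 or either WTAP-KO library (adjusted p = 0.0503 to 0.0596), while without METTL3-KO 1 it was -7.85 and without METTL3-KO 2 -2.90. Among the 4 higher were HOXA10 (4.55 ± 0.25, adjusted p = 3.71e-05), HOXB5 (1.41 ± 0.37, adjusted p = 0.0312) and HOXB8 (1.70 ± 0.44, adjusted p = 0.0300). At HOXB5 and HOXB8 the calls were lost without METTL3-KO 1 (1.15 and 1.29), without WTAP-KO 1 or without any 1 NTC library, and at HOXB5 the sign turned after centring (-0.24).

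Over whole clusters, from the first to the last member, the summed peak signal in HOXC was 50640, 66794 and 63362 in NTC and 1059 to 5973 in KO. In HOXD it was 15791, 7538 and 8114 in NTC and 0 to 3629 in KO. In HOXA it was 16752, 18762 and 27384 in NTC, 12186 and 10575 in METTL3-KO, and 0 to 2130 in the other KO libraries. The KO mean was 5.15% of the NTC mean in HOXC, 8.75% in HOXD and 21.6% in HOXA. Every KO library lay below every NTC library in these 3 clusters, as it did at 68.1% of all promoters tested in the genome. The HOXA sum leaves out the NTC peaks at HOXA13, which lie just past the end of the span. With 5 kb added at each end, the HOXA KO mean was 16.1% of the NTC mean.

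HOXB behaved otherwise. Its signal was 54537, 27082 and 18395 in NTC, 67042 and 35334 in METTL3-KO, 36329 and 21476 in METTL14-KO, and 18058 and 23921 in WTAP-KO, and the groups overlapped. The KO mean was 101% of the NTC mean, at 154% in METTL3-KO, 86.7% in METTL14-KO and 63.0% in WTAP-KO. Peaks covered 8515 ± 3425 bp of HOXB in NTC (n = 3) and 7942 ± 1819 bp in KO (n = 6), and the spread of either group was larger than the difference.

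**Figure D5:**
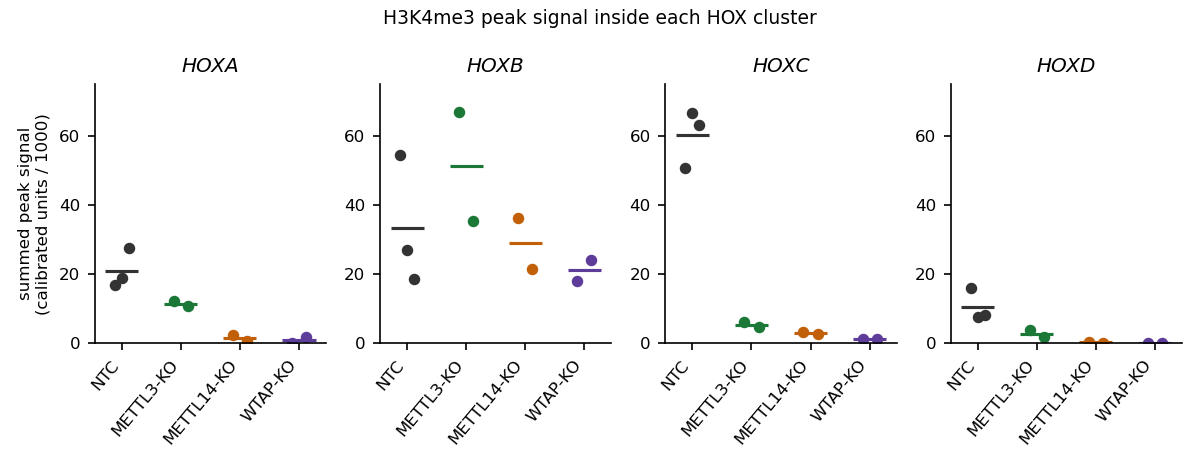
Summed peak signal inside each HOX cluster, in calibrated units divided by 1000, with a point per library and a line at the group mean. KO libraries lie below NTC in HOXA, HOXC and HOXD. In HOXB the groups overlap, with METTL3-KO 1 above every NTC library and WTAP-KO 1 just below the lowest.

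Merged over all libraries, the 204 peaks in the clusters formed 59 regions, 10 in HOXA, 26 in HOXB, 14 in HOXC and 9 in HOXD, and 30 of them lay within 1 kb of a HOX start. Of the 48 regions called in at least 2 libraries, 26 were lower over all KO groups and 12 higher, beside 76.7% and 12.2% of the 24547 regions tested in the genome. HOXB held 8 of the 12 higher regions with 9 lower, HOXC none with 10 lower, HOXA 3 with 2 lower, and HOXD 1 with 5 lower. The median log2 change was -3.72 over the HOX regions and -4.95 over all regions. A peak in all 6 KO libraries and no NTC library was found in 5 regions, all in HOXB, or 8.47% of the 59 against 2.49% of all 30402 regions. A peak in all 3 NTC libraries and no KO library was found in 17, or 28.8% against 37.9%.

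The 30 regions near a HOX start and the 29 farther away had unlike counts. The same split was not made over the genome, so whether the contrast is particular to the clusters was not tested. Of 27 tested near a start, 11 were lower and 10 higher, and of 21 tested farther away, 15 were lower and 2 higher, though this difference was not tested. The 2 higher were the HOXB3 intron region described above, at 10901 and 6594 in METTL3-KO, 3284 and 2548 in METTL14-KO, and 3141 and 2741 in WTAP-KO (7.12 ± 0.24, adjusted p = 2.68e-07), and chr2:176961133-176962164, between HOXD13 and HOXD12, at 2051 and 798 in METTL3-KO and 258 in METTL14-KO 1 (2.36 ± 0.71, adjusted p = 0.0207). Neither had a NTC peak.

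Among the lower regions away from a start was chr7:27200063-27201614, an intergenic region 2508 bp from HOXA7, with 9073, 7731 and 8354 in NTC, 725 and 1117 in METTL3-KO, and 425 in WTAP-KO 2 (-5.82 ± 0.82, adjusted p = 5.22e-04). In HOXC, the region chr12:54356459-54358440 lay outside the HOX genes but inside the lncRNA gene HOTAIR, away from its starts. It had 8515, 7171 and 9946 in NTC and no KO peak (-8.14 ± 0.14, adjusted p = 1.22e-08). In the gap between HOXB9 and HOXB13, the lower region with the most NTC signal was chr17:46724612-46725319, within 1 kb of starts of the lncRNA genes LINC02086 and LINC03057. It had 2669, 1422 and 3795 in NTC and no KO peak (-6.36 ± 0.29, adjusted p = 1.26e-06). In HOXD, an intron region of HOXD3 at chr2:177005122-177005863 had 380, 592 and 422 in NTC and no KO peak (-4.02 ± 0.16, adjusted p = 5.58e-07).

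The base composition of the regions is given as a description, with no test. The median ratio of observed to expected CG was 0.492 over the 30 cluster regions with NTC peaks alone, 0.658 over the 17 with KO peaks alone, and 0.580 over the 12 with both. Over all regions of the genome it was 0.398, 0.648 and 0.664. The median width of the regions with NTC peaks alone was 567.5 bp in the clusters and 581 bp over the genome.

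Non-coding genes of the clusters were counted in the same way. Of 28 lncRNA genes with a start in a cluster, 17 had a promoter peak, 10 in NTC libraries alone, 2 in KO libraries alone and 5 in both. The same count was not made over all lncRNA genes, so these numbers are not a trait of the clusters. Of all merged regions of the genome, 64.1% had NTC peaks alone, 15.2% KO peaks alone and 20.7% both. HOTAIR, which lies in HOXC and is known for recruiting repressive complexes, had a promoter signal of 47.4, 438 and 464 in NTC and no KO peak. The stronger NTC region inside this gene, described above, lies away from its starts and is not in that sum. HAGLR in HOXD, at the HOXD1 promoter, had 2998, 4410 and 5313 in NTC and no KO peak. HOXB-AS1, beside HOXB2, was one of those with KO peaks alone, at 4920 and 250 in METTL3-KO, 4259 and 2441 in METTL14-KO, and 1681 and 1691 in WTAP-KO.

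Genes that act with or on HOX genes went both ways. Of 9 cofactor genes, 7 were tested over all KO groups, 2 were lower and 2 higher, beside 72.9% lower and 14.5% higher of all genes tested. PKNOX1, which pairs with PBX proteins, had 19130, 16867 and 23781 in NTC and 565 to 3446 in KO, and the other lower gene was PBX4. MEIS2, which binds DNA with HOX proteins, had 707, 806 and 345 in NTC, 20690 and 9383 in METTL3-KO, 8591 and 5977 in METTL14-KO, and 1721 and 4129 in WTAP-KO, and PBX3 was the other higher gene. MEIS1, the cofactor that acts with HOXA9 in leukemia, had 18159 in NTC 1 alone and signals of 1669 to 12239 in 5 KO libraries, and did not pass (adjusted p = 0.31).

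Of 12 regulators of HOX transcription, 9 were tested, 4 were lower and 1 higher, the latter a share near the 14.5% of all genes. The higher one was KMT2A, whose product MLL1 writes H3K4 methylation at HOX genes, with no NTC peak and 15290 to 31730 in the KO libraries. Whether the NTC libraries had a domain there that was wider than the 2000 bp limit, and so not listed, was not tested. The lower were DOT1L (3897, 3162 and 3564 in NTC, no KO peak), MEN1, BMI1 and EZH2. Of the 24 nearest protein-coding genes, 3 at each end of each cluster, 21 were tested, 12 were lower and 1, LNPK beside HOXD, was higher, with a median log2 change of -5.22, beside 72.9% lower, 14.5% higher and a median of -5.47 over all genes tested. The genes that flank HOXB included none that was higher, and EVX1 and EVX2, the homeobox genes linked to HOXA and HOXD, had no peak in any library.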

How the data were processed

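The authors aligned paired 50-base reads with Bowtie to hg19 and to the yeast genome sacCer3 of a spike-in, calibrated by the spike-in, removed duplicates with Picard and called peaks in each library on its own. The deposited lists give a calibrated signal per peak, and no replicates were pooled. Peak starts were assumed to count from 0, and 1 was added to print them. GENCODE annotation on hg19 was used, and 2 mitochondrial peaks were left out. Groups came from the labels. Peaks within 1 kb of any annotated start were summed per gene, and peaks with 1 bp or more in common were joined as regions. Both were tested with limma 3.58.1 (R 4.3.3; lmFit, eBayes with trend) on log2(signal + 30.1), the lowest value above 0, for features with a peak in at least 2 libraries, in 1 model of 9 libraries and 4 groups, with Benjamini-Hochberg adjustment at 0.05. No count model was used, since the values are not counts. The limma fit was checked on simulated data with known changes. HOX genes with a peak are named with values and the others counted, and some items are not reported here. The members and the lists of cofactors, regulators, markers and neighbours were chosen with earlier results of these data known. Same-numbered libraries did not deviate together (12 pairs, r from -0.0622 to 0.0979), so numbers were not taken as pairs. Alternatives were the pseudocount, the filter, centring, the highest peak, the replicate block, the groups in the fit, a peak threshold, merging, the outermost start, a 3 kb window, wider cluster spans and leaving out each library. Tables and figures were made with matplotlib 3.10.9, numpy 2.4.6 and pandas 2.3.3 in Python 3.11.15.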

Additional observations from a re-analysis of the deposited data

Results flagged for a closer look

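At 6 HOX promoters named here METTL3-KO differed from the average of the other KO groups by the test of that difference itself. The log2 difference was -6.28 at HOXB2, -7.95 at HOXB3 and -5.38 at HOXB4, with more signal in METTL14-KO and WTAP-KO. It was 4.55 at HOXA10, 1.41 at HOXB5 and 1.70 at HOXB8, with more signal in METTL3-KO. With the outermost start of each gene alone, the HOXA10 difference was gone, since no KO library had a peak there. In a 3 kb window the HOXB2 difference was -1.13 and did not pass (adjusted p = 0.563). Whether METTL3-KO had unlisted domains wider than 2000 bp at HOXB3 and HOXB4 was not tested.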

How the results depend on the processing

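Over the 8 results that answer a comparison, 129 of 140 alternatives left the count within 1.5 times of its main value or, for values with no test, within 1 SD. The counts add lower and higher calls and have no sign, so they cannot show a change of direction. In METTL14-KO the total stayed at 14 after centring, while 8 lower and 6 higher became 6 lower and 8 higher. With only peaks as strong as the median NTC peak or stronger, 15 HOX genes were tested and the calls were 8 over all KO groups, 6 in METTL14-KO, 6 in WTAP-KO, 1 between METTL3-KO and the others and 21 among cluster regions. The higher calls were 3 over all KO groups (6 in the main setting), 4 in METTL3-KO (5), 2 in METTL14-KO (6) and 1 in WTAP-KO (5), with HOXB7 the one left in WTAP-KO. The KO mean of marked HOX genes was 68.52% of the NTC mean (88.75% in the main setting). With the outermost start alone that share was 56.94%, with 4 calls between METTL3-KO and the others, and 18 HOX genes were tested, with 8 lower and 3 higher over all KO groups. HOXB3, HOXB6, HOXB7 and HOXB8 had no peak at that start. A 3 kb window gave 22 calls in METTL3-KO. Leaving out 1 library at a time gave 3 to 8 calls between METTL3-KO and the others, 3 without METTL3-KO 1 and 3 without WTAP-KO 1. Fewer peaks or libraries are left by construction in these settings, and beyond that the cause was not tested. With the replicate number as a replicate block, 17 HOX promoters were called over all KO groups (10 lower, 7 higher), 5 between METTL3-KO and the others and 40 cluster regions.

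Of 532 alternative values of single genes, 468 did not change sign or call and 20 reversed, all at genes with uneven NTC or METTL3-KO calls except HOXB5. Leaving out 1 library at a time gave -2.60 to 1.63 at HOXD13 (1.63 without NTC 1), -1.24 to 3.37 at HOXA6, -2.07 to 1.77 at HOXB3, -1.30 to 0.36 at HOXB4 and -0.74 to 3.48 at HOXB9. HOXA6 was -0.49 at 10 times the pseudocount, -0.87 with the peak threshold and -1.24 without NTC 1 or NTC 2. HOXB3 was -2.07 with the replicate block or without NTC 3. HOXB4 was 0.041 at 10 times the pseudocount, 2.31 after centring, 0.63 with the peak threshold and 0.36 without METTL3-KO 2. HOXB9 was -0.12 at 10 times the pseudocount, -0.56 with the peak threshold, -0.74 with the block or without NTC 2 or NTC 3, -0.15 without METTL14-KO 1 and -0.32 in the 3 kb window. Between METTL3-KO and the others, HOXB3 was 0.41 in the 3 kb window and HOXB5 -0.24 after centring. The cause was not tested.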
